A study of Mus musculus with 3 samples.

Results

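The collagen genes are the mouse genes whose symbols have the form Col, number, a, number, each encoding 1 alpha chain of a collagen. They were found by matching each probe's accession to the RefSeq gene table, which holds 44 such genes. Of these, 42 were matched by at least 1 probe (61 probes in all), and 34 had a probe well above background on at least 1 array, among 15761 genes of the whole series that passed the same filter. The 8 matched genes that did not pass were Col2a1, Col4a3, Col6a4, Col6a6, Col9a3, Col13a1, Col19a1 and Col26a1, with unscaled signals between 2.87 and 14.1 on every array. Col6a3 and Col12a1, main chains of types VI and XII, were matched by no probe and were not analysed here.

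The RNA came from mouse cavernous endothelial cells, primary cells that the labels place in the erectile tissue of the penis of C57BL/6 mice. All were grown with serum, heparin and vascular endothelial growth factor A. The groups were high glucose (30 mmol) with an siRNA against Ninj1 (200 pmol), high glucose (30 mmol), and normal glucose (5 mmol), each for 48 h. Each group is 1 single-colour array of RNA pooled over 3 numbered samples, so nothing here has a replicate check, no test was run, and higher or lower refers to the arrays at hand. Whether the other cells were given a control siRNA is not stated in the labels.

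Collagens are the main proteins of the extracellular matrix. Every collagen molecule is a triple helix of 3 alpha chains, identical or different, so several genes can supply 1 molecule. Fibrillar collagens build the tension-bearing fibrils of the vessel wall and of erectile tissue, type IV collagen builds the sheet of the basement membrane under endothelium, and type VI forms beaded filaments between the cells and the fibrils. Fibril-associated collagens sit on the surface of fibrils, and transmembrane collagens are held in the cell membrane.

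The target of the siRNA went against the labels. Ninj1, which encodes a cell adhesion protein, had a scaled signal of 23212 on the siRNA-labelled array, 17334 on the high-glucose-labelled array and 21107 on the normal-glucose-labelled array. The names of the deposited files also exchange the siRNA and high glucose arrays. Each direction below therefore holds for the array so labelled and not for a verified treatment. Scaled signal is the background-subtracted brightness multiplied by 0.909 (siRNA), 1.06 (high glucose) or 1.03 (normal glucose), which brings the 75th percentile of all 39398 probes to the same value on each array. Probes bind with different strength, so the signal of a gene can be compared between arrays and not with that of another gene.

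The markers did not single out endothelium. Of 16 endothelial markers 12 were above background on at least 1 array, among them Cdh5 and Kdr on every array. Tie1, Erg, Emcn and Sox18 passed on none. Above background were 10 endothelial markers on the siRNA-labelled array, and 11 on each of the high-glucose-labelled and normal-glucose-labelled arrays. All 13 fibroblast markers other than collagens passed, as did 12 of 14 smooth muscle and pericyte markers. Of all 19737 named genes with a probe 15761 passed, so the numbers of passing markers here and below say little by themselves. The summed scaled signal of the fibroblast list was 661485 on the siRNA-labelled array, 884873 on the high-glucose-labelled array and 880237 on the normal-glucose-labelled array. For smooth muscle and pericyte markers it was 32381, 75036 and 80075 in the same order of labels, and for endothelial markers 14697, 12146 and 12076. In RNA of whole cultures, fewer cells of a type and less RNA per cell cannot be told apart, and the part of these markers in the collagen results was not tested.

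Set against the high-glucose-labelled array, the collagen genes were mostly lower on the siRNA-labelled array. Of 29 collagen genes well above background on every array, 9 were lower by 2-fold or more and none was higher by as much, with a median log2 difference of -0.63 (1.55-fold lower). Among all 14359 genes above background on every array 7.14% were lower and 5.97% higher by 2-fold or more, with a median of 0.01. Below 0 were 25 of the 29 collagen genes, against 48.8% of all those genes. With genes that passed on some arrays only, 33 collagen genes could be compared and 12 were at least 2-fold lower, against 8.35% of 15362 genes, and none was higher by 2-fold, against 6.62%. The 4 added genes are bounds. Col6a5, Col22a1 and Col28a1 were below background on the siRNA-labelled array and had to be lower to be compared at all, and Col15a1 was above background only there and had to be higher, so none of them is read as support.

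Each log2 difference of a gene measured on both arrays carries an error from the model of the scanner software, which for the 29 genes had a median of 0.20 and a range of 0.06 to 0.37. It is given as ± below and covers neither culture nor hybridisation. Differences smaller than it are reported as values only.

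**Figure D1:**
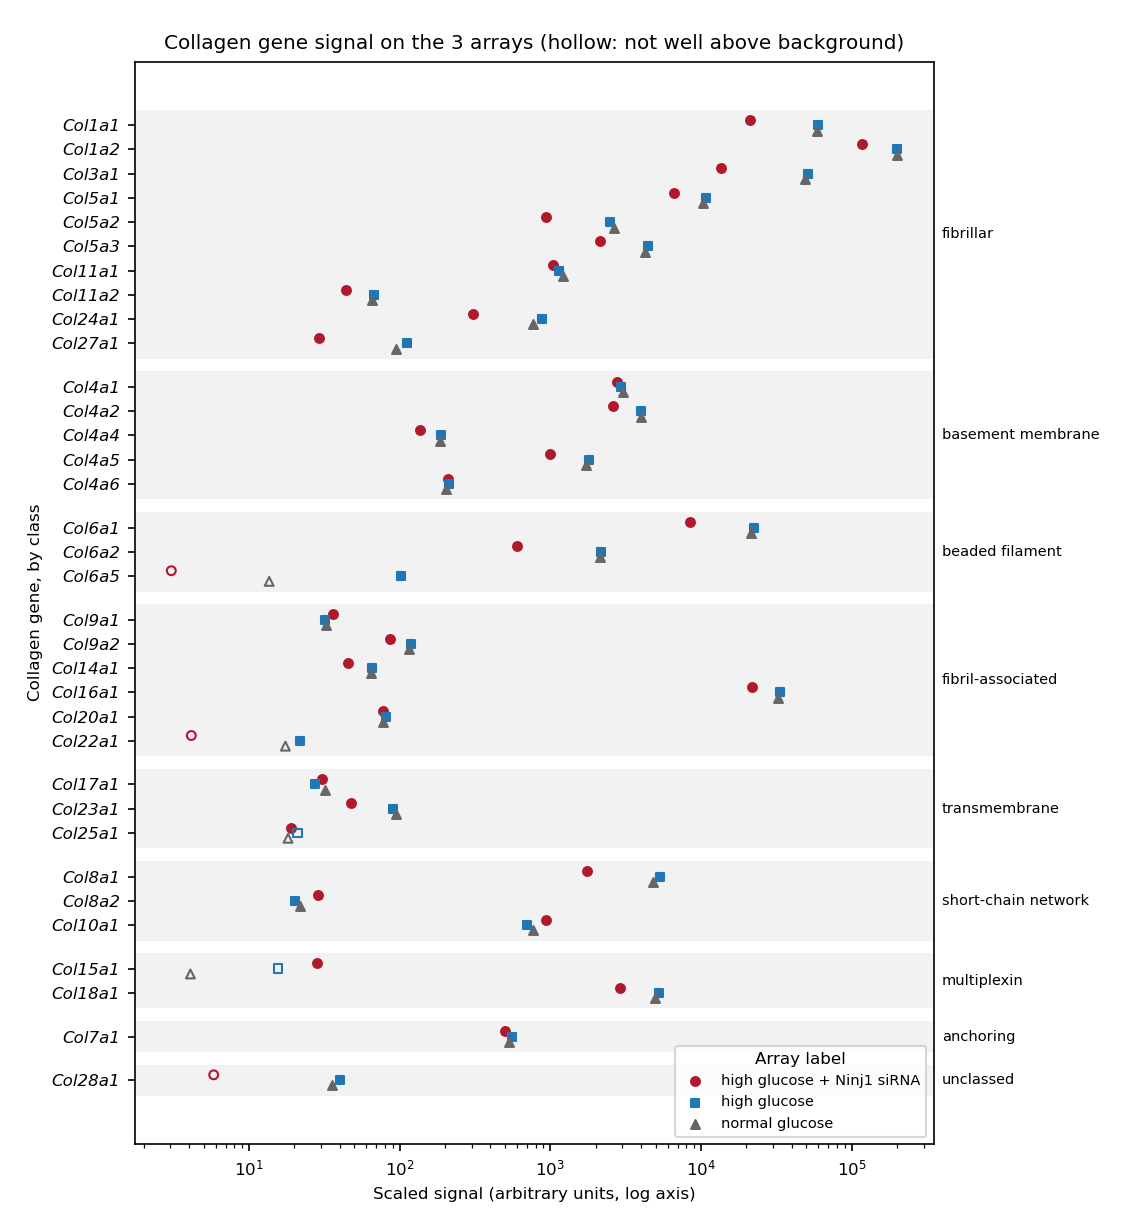
Scaled signal (log axis, arbitrary units) of the 34 collagen genes that passed, 1 row per gene, grouped by class, with 1 point for each of the 3 arrays and hollow points where the gene was not well above background. The high glucose and normal glucose points of most genes lie together, while the siRNA points of Col1a1 (21299 against 59629 on the high-glucose-labelled array), Col3a1 and Col6a2 lie to their left.

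Fibrillar collagens were lower as a class on the siRNA-labelled array. All 10 that passed were measured on every array, all 10 had differences below 0 from the high glucose label, and 6 were at least 2-fold lower, with a median of -1.23 (2.35-fold lower). Type III collagen, a molecule of 3 identical chains that is plentiful in vessel walls, is encoded by Col3a1, whose scaled signal was 13668 on the siRNA-labelled array, 51183 on the high-glucose-labelled array and 48654 on the normal-glucose-labelled array. Col3a1 was 3.74-fold lower on the siRNA-labelled array than on the high-glucose-labelled array (log2 difference -1.90 ± 0.20) and 3.56-fold lower than on the normal-glucose-labelled array.

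Type I collagen, the main fibril of skin, bone and tendon, is built of chains from Col1a1 and Col1a2. Col1a1 had a scaled signal of 21299 on the siRNA-labelled array, 59629 on the high-glucose-labelled array and 59086 on the normal-glucose-labelled array, so only the siRNA array stood apart. It was 2.80-fold lower than on the high-glucose-labelled array (-1.49 ± 0.20). Col1a2 had 117751, 201376 and 199000 in the same order and was 1.71-fold lower (-0.77 ± 0.20). The probes of the 2 genes thus differed by 0.71 on the log2 scale, which is 2.46 times the combined error of 0.29.

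Type V collagen joins type I in the same fibrils and limits their thickness. Col5a2 had a scaled signal of 934 on the siRNA-labelled array, 2496 on the high-glucose-labelled array and 2665 on the normal-glucose-labelled array, a difference of -1.42 ± 0.20 (2.67-fold lower) between the siRNA and high glucose labels. Col5a3 had 2148, 4453 and 4255 in the same order and was 2.07-fold lower (-1.05 ± 0.20). This last value lies close to the 2-fold threshold, and against the normal glucose label Col5a3 was 1.98-fold lower. Col5a1, the chain found in most type V molecules, had 6647, 10848 and 10385 and was 1.63-fold lower (-0.71 ± 0.20).

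The minor fibrillar chains split. Col24a1 had a scaled signal of 307 on the siRNA-labelled array, 880 on the high-glucose-labelled array and 770 on the normal-glucose-labelled array (2.87-fold lower on the siRNA-labelled array than on the high-glucose-labelled array, -1.52 ± 0.20). Col27a1 was dim, at 29.3, 111 and 94.7 in the same order (3.81-fold lower, -1.93 ± 0.26), and the difference was -1.13 with normexp background correction. Col24a1 and Col27a1 encode fibrillar collagens known mainly from developing bone and cartilage. The type XI chains, best known from cartilage, differed less. Col11a1 stood at 1045, 1138 and 1217 (-0.12 ± 0.20), a difference within its error, and Col11a2 at 44.2, 67.0 and 65.7 (-0.60 ± 0.26).

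RefSeq sequence before the annotated start (build GRCm38.p6, 250 bases, written 5′ to 3′ on the strand of the gene) is shown for genes of the classes that differed most and for the head-to-head pair of type IV genes described below. Capitals mark a CCAAT box (CCAAT, or ATTGG for the opposite strand) or a GC box (GGGCGG, or CCGCCC for the opposite strand), searched on both strands. These motifs do not overlap each other.
Col1a2, chr6:4505368-4505617, plus strand: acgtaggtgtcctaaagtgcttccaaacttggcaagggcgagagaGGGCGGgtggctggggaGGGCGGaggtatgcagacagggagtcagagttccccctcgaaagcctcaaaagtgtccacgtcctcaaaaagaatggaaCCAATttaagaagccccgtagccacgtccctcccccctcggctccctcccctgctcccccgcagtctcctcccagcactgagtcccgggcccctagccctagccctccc
Col3a1, chr1:45311288-45311537, plus strand: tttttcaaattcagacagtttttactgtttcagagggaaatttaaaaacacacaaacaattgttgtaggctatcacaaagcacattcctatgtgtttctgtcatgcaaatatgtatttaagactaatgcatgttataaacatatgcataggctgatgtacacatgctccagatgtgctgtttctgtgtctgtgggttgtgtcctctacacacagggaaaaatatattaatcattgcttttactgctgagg
Col6a1, chr10:76726045-76726294, minus strand: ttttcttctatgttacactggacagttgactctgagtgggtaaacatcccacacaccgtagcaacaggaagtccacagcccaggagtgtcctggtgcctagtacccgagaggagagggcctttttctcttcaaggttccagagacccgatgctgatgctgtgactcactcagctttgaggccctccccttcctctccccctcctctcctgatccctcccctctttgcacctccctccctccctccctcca
Col4a5, chrX:141475169-141475418, plus strand: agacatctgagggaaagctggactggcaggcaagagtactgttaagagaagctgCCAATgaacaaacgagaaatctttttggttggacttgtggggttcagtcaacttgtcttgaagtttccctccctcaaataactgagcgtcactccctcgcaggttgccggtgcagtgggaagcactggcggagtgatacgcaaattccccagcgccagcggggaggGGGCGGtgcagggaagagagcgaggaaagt
Col4a6, chrX:141474077-141474326, minus strand: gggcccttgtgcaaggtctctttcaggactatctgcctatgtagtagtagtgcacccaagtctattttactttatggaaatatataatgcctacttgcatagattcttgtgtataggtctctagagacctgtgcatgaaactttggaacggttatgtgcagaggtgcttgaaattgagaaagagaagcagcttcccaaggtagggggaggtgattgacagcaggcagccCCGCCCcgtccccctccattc
In this window Col1a2 holds 1 CCAAT box and 2 GC boxes, and Col4a5 holds 1 of each. Col4a6 holds 1 GC box, and Col3a1 and Col6a1 hold neither motif. RefSeq windows were available for 35 of the collagen genes (38 windows). A CCAAT box was present in 13 of these windows (34.2%), against 33.8% of all 32851 windows, and a GC box in 22 (57.9%), against 32.7%. A match describes these letters only and is no evidence of binding.

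The beaded filament class was lower on both of its well-measured genes. Col6a1 had a scaled signal of 8418 on the siRNA-labelled array, 22379 on the high-glucose-labelled array and 21434 on the normal-glucose-labelled array, a difference of -1.41 ± 0.20 between the siRNA and high glucose labels (2.66-fold lower). Col6a2 had 603, 2174 and 2145 in the same order and was 3.60-fold lower (-1.85 ± 0.20). Their chains are joined in the same type VI molecule, and the genes are neighbours on chromosome 10 with no protein-coding gene between them in the RefSeq table. Col6a5, an alternative type VI chain, was well above background on the high-glucose-labelled array only, with scaled signals of 3.05, 102 and 13.6 for siRNA, high glucose and normal glucose. With the main processing that makes it at least 9.63-fold lower on the siRNA-labelled array than on the high-glucose-labelled array, from 1 spot per array. Its second probe passed on none of the arrays. Under the alternative processing steps the Col6a5 difference lay between -5.07 and -1.29 on the log2 scale, so its size rests on the processing.

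Type IV chains lay nearer to 0 than fibrillar and type VI chains by their median (-0.47), a difference between classes that was not tested, and none of the 5 that passed was at least 2-fold lower or higher. Col4a1 was printed 10 times on each array. Its error, the smallest among the collagen genes, treats the software errors of these spots as independent, which was not tested. Its scaled signal averaged 2766 ± 142 on the siRNA-labelled array, 2949 ± 123 on the high-glucose-labelled array and 3048 ± 184 on the normal-glucose-labelled array (SD over 10 spots of the same array), and these ranges overlap. The difference of Col4a1 between the siRNA and high glucose labels was -0.09 ± 0.06. Col4a2, whose chain joins 2 Col4a1 chains in the common type IV molecule, had 2615, 4002 and 4022 in the same order and was 1.53-fold lower (-0.61 ± 0.20).

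The other type IV chains build the more restricted networks of kidney, lung and smooth muscle basement membranes. Col4a5 had a scaled signal of 991 on the siRNA-labelled array, 1799 on the high-glucose-labelled array and 1726 on the normal-glucose-labelled array (1.82-fold lower on the siRNA-labelled array than on the high-glucose-labelled array, -0.86 ± 0.20). Col4a6 had 209, 214 and 202 (-0.03 ± 0.21, and 0.06 after quantile normalization), so its arrays were not told apart. Col4a4 had 137, 189 and 185 (-0.47 ± 0.21), and its second passing probe differed by -0.13.

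Type IV genes lie in the genome as head-to-head pairs that are read in opposite directions. Col4a5 and Col4a6 lie on chromosome X with 1343 bases between their annotated starts, and their differences were 0.83 apart on the log2 scale, 2.85 times the combined error. Col4a1 and Col4a2 lie on chromosome 8 with starts 21 bases apart, and their differences were 0.52 apart. That is 2.43 times the combined error, if the spots of Col4a1 are independent. Col3a1 and Col5a2, fibrillar neighbours on chromosome 1 with no protein-coding gene between them, were both at least 2-fold lower and lay 0.49 apart (1.69 times the combined error).

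**Figure D2:**
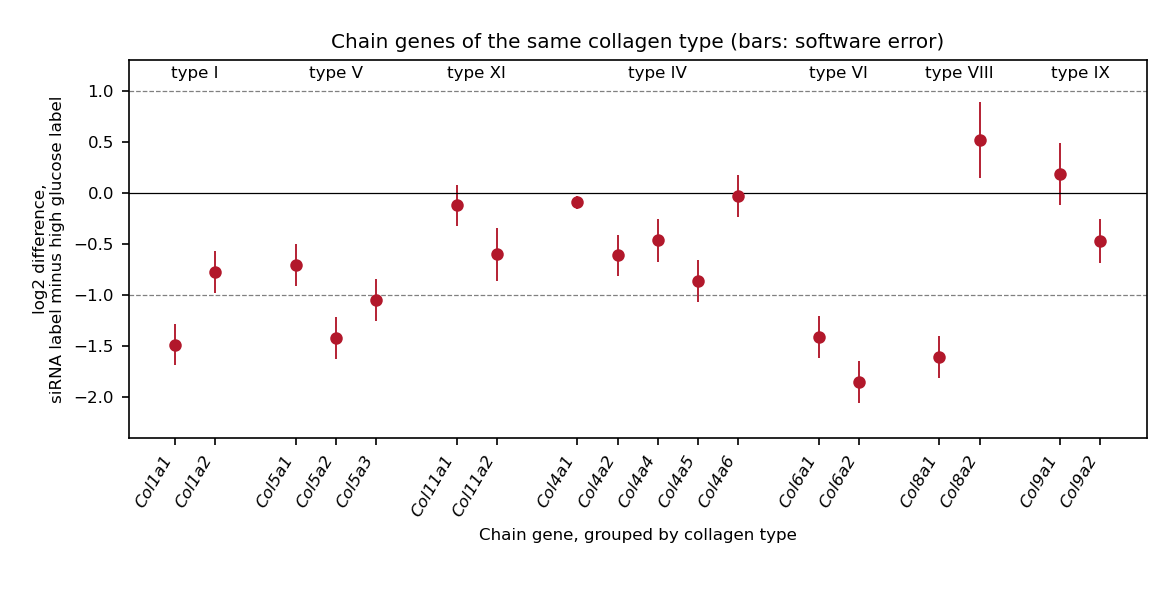
Log2 difference between the siRNA and high glucose labels (vertical axis) for chain genes of 7 collagen types, 1 point per gene, with bars of 1 software error and dashed lines at 2-fold. The type VI genes Col6a1 and Col6a2 lie at -1.41 and -1.85, and the bound Col6a5 is not shown. Col8a1 (-1.60) and Col8a2 (0.52) lie on opposite sides of 0, though the direction of Col8a2 rests on the background correction.

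Fibril-associated collagens differed modestly. Col16a1, which binds fibrils in skin and other tissues, had a scaled signal of 21769 on the siRNA-labelled array, 33698 on the high-glucose-labelled array and 32579 on the normal-glucose-labelled array, a 1.55-fold lower value (-0.63 ± 0.20) between the siRNA and high glucose labels. Its 3 probes gave between -0.69 and -0.60. Col14a1, a regulator of fibril growth, was dim at 45.0, 65.3 and 64.3 (-0.53 ± 0.26), and its second probe gave -0.62.

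The remaining members of that class gave no difference of 2-fold that was measured on both arrays. The type IX chains of cartilage were dim and went apart, Col9a2 at -0.47 ± 0.22 and Col9a1 at 0.19 ± 0.30, which was -0.07 with normexp. Col20a1 differed by -0.08 ± 0.23 on its brighter probe and 0.05 on the other, and by 0.05 on the brighter one after quantile normalization. Col22a1, a collagen of tissue junctions, was at least 2.04-fold lower on the siRNA-labelled array, from a scaled signal of 4.14 against 21.7 on the high-glucose-labelled array and 17.4 on the normal-glucose-labelled array, all near the limit of detection. With normexp the Col22a1 difference was -0.46.

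Transmembrane collagens were dim on all arrays. Col23a1 had a scaled signal of 47.7 on the siRNA-labelled array, 90.4 on the high-glucose-labelled array and 95.2 on the normal-glucose-labelled array. It was 1.90-fold lower (-0.92 ± 0.22) on its brighter probe and 2.48-fold lower on its other passing probe, which puts it on both sides of the 2-fold threshold, and the brighter probe gave -0.53 with normexp. Col17a1, a component of the hemidesmosomes of skin, had 30.6, 27.2 and 31.9 (0.17 ± 0.31, and -0.05 with normexp). Col25a1 was above background on the siRNA-labelled array only, at 19.1 against 21.0 on the high-glucose-labelled array, and could not be compared between these labels. Against the normal-glucose-labelled array (18.1) it enters only as a bound, at least 1.05-fold higher.

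The short-chain collagens went both ways. Col8a1, a collagen of vessel walls and of the basement membrane of the corneal endothelium, had a scaled signal of 1763 on the siRNA-labelled array, 5362 on the high-glucose-labelled array and 4831 on the normal-glucose-labelled array, and was 3.04-fold lower (-1.60 ± 0.20) on the siRNA-labelled array than on the high-glucose-labelled array. Its partner Col8a2 was dim, at 28.8, 20.1 and 21.8 (0.52 ± 0.37), and gave -0.03 with normexp, so its direction rests on the background correction. Col10a1, known from growth-plate cartilage, had a higher value on the siRNA-labelled array, at 939, 702 and 762 (1.34-fold higher, 0.42 ± 0.20).

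Of the collagens of the basement membrane zone, Col18a1, whose chain releases the anti-angiogenic fragment endostatin, had a scaled signal of 2918 on the siRNA-labelled array, 5265 on the high-glucose-labelled array and 4945 on the normal-glucose-labelled array. It was 1.80-fold lower on the siRNA-labelled array than on the high-glucose-labelled array (-0.85 ± 0.20), and its second probe gave -0.77. Its relative Col15a1 was above background on the siRNA-labelled array only, at 28.4 against 15.6 and 4.08 under the high glucose and normal glucose labels, which makes it at least 1.63-fold higher than on the high-glucose-labelled array, and 0.09 on the log2 scale with normexp. Col7a1, the anchoring fibril collagen that ties epidermis to dermis, had 498, 557 and 535 (-0.16 ± 0.20). Col28a1, which lies around Schwann cells in nerves, was at least 3.78-fold lower, at 5.82 on the siRNA-labelled array against 40.2 on the high-glucose-labelled array and 35.4 on the normal-glucose-labelled array. With normexp its difference was -0.68.

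**Figure D3:**
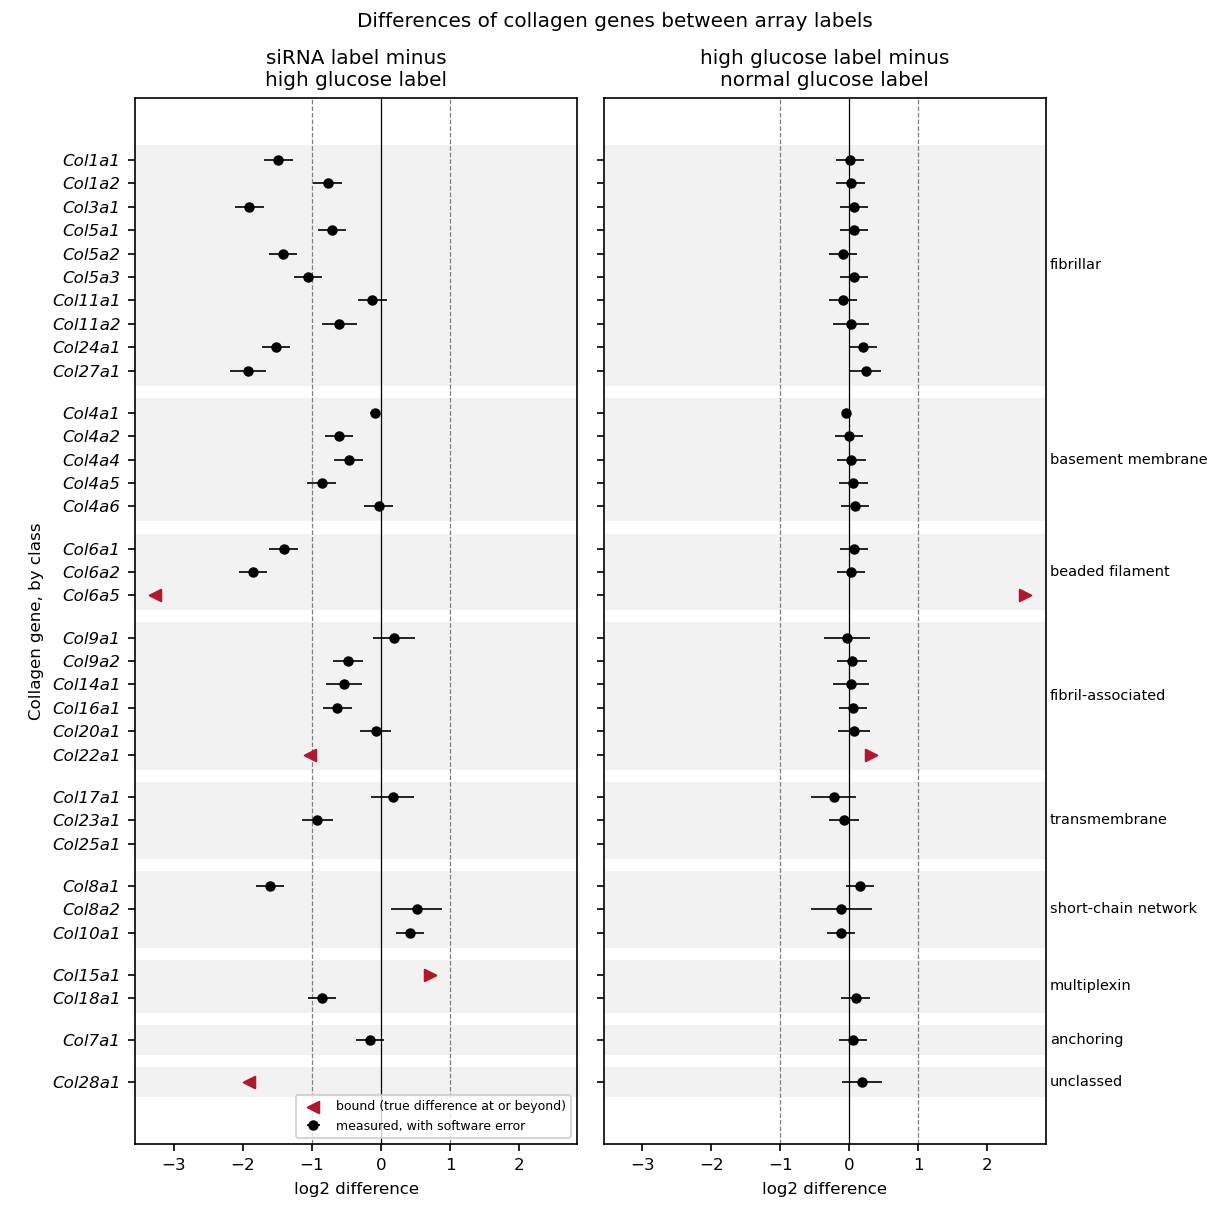
Log2 differences of the collagen genes by class (horizontal axes), siRNA label minus high glucose label in the left panel and high glucose label minus normal glucose label in the right panel, with bars of 1 software error, triangles for bounds and dashed lines at 2-fold. In the left panel 9 measured genes lie beyond -1, and in the right panel Col6a5, a bound, is the only gene beyond 1.

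High-glucose-labelled and normal-glucose-labelled arrays gave nearly the same collagen signals. For the 29 genes above background on every array the log2 difference lay between -0.23 and 0.24 with a median of 0.03, against a median of -0.01 for all 14359 such genes. None of the 29 was lower or higher by 2-fold, against 0.181% and 0.244% of those genes. For 19 of the 29 the difference was below 0.08, the typical spread between the values of 2 spots of the same probe on arrays of this series. The largest in size were Col27a1 at 0.24, Col17a1 at -0.23 and Col24a1 at 0.19.

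Only Col6a5 passed 2-fold among the 32 collagen genes compared between these labels, being at least 5.86-fold higher on the high-glucose-labelled array. None was lower by 2-fold. Among 15081 genes 0.816% were higher and 0.69% lower by as much. The Col6a5 value is a bound from 1 spot per array (102 on the high-glucose-labelled array and 13.6 on the normal-glucose-labelled array, where it was not well above background), and with normexp the difference was 0.95.

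The array labelled siRNA is also part of the comparison with normal glucose, so that comparison is no second measurement of the siRNA array. There 8 of the 29 genes were lower by 2-fold or more and none higher, against 7.02% and 5.79% of all genes above background on every array. Of 32 collagen genes compared with bounds included 9 were lower and none higher, against 8.09% and 6.48% of 15287 genes. Col1a1 was 2.77-fold lower, Col6a1 2.55-fold, Col6a2 3.56-fold, Col8a1 2.74-fold and Col27a1 3.24-fold.

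The genes that make, process and bind collagen did not follow the fibrillar chains uniformly. Among all 15362 genes compared between the siRNA and high glucose labels 8.35% were at least 2-fold lower and 6.62% higher. These shares are the background of every list below, and a count of 1 gene is not read as a difference from them. Of 22 genes of chain synthesis and folding compared between the siRNA and high glucose labels, 1 was at least 2-fold lower and none higher, with a median of -0.23. That gene was Creb3l1, a transcription factor of the secretory pathway that binds the type I collagen promoter in bone (1318 on the siRNA-labelled array, 3900 on the high-glucose-labelled array and 3743 on the normal-glucose-labelled array, 2.96-fold lower). The chaperone of triple helices Serpinh1 (1.15-fold lower) and the prolyl hydroxylase subunit P4hb (1.03-fold lower) differed little. The prolyl hydroxylase P4ha1 and the lysyl hydroxylase Plod1, which modify the chains before folding, were each 1.64-fold lower.

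Among 13 genes of propeptide removal and crosslinking 3 were at least 2-fold lower and 1 at least 2-fold higher (median -0.52). Adamts2, which cuts the amino-terminal propeptide from types I and III, was 7.43-fold lower, with 2166 on the siRNA-labelled array, 16091 on the high-glucose-labelled array and 15917 on the normal-glucose-labelled array. The crosslinking enzymes Loxl2 and Lox were 2.75-fold and 1.97-fold lower, and Adamts3 was at least 2.97-fold lower. Pcolce2, an enhancer of carboxy-terminal cutting, was 2.12-fold higher, while its relative Pcolce was 1.86-fold lower.

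Single collagen receptors differed in both directions. Of 11 compared, 3 were at least 2-fold lower and 1 at least 2-fold higher (median -0.30). The alpha chains of the collagen-binding integrins differed most: Itga11 was 29.5-fold lower (37.5 on the siRNA-labelled array, 1106 on the high-glucose-labelled array and 1226 on the normal-glucose-labelled array) and Itga1 3.08-fold lower. Itga2 was 4.49-fold higher, at 135, 30.0 and 26.8 in the same order. Their shared partner Itgb1 was 1.04-fold higher, the discoidin receptor Ddr1 2.01-fold lower and Ddr2 1.18-fold lower.

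Of 10 genes of collagen breakdown 1 was higher and 1 lower by 2-fold or more (median 0.17), near the shares of 6.62% and 8.35% over all genes. The collagenase Mmp13 was 3.41-fold higher, with 40659 on the siRNA-labelled array, 11918 on the high-glucose-labelled array and 12282 on the normal-glucose-labelled array, and the inhibitor Timp3 was 9.38-fold lower. The partners of type IV collagen in the basement membrane had 4 of 18 genes at least 2-fold lower and none higher (median -0.42). These were Nid2, a linker between laminin and type IV collagen, at 5.07-fold, and the laminin chains Lama4, Lamb2 and Lamb3 at 2.47-fold, 2.26-fold and 2.01-fold. Lamb3 had 76.4, 154 and 73.7 in the order of labels used above, so that the high-glucose-labelled array stood apart. Lamb3 was thus 2.08-fold higher on the high-glucose-labelled array than on the normal-glucose-labelled array, and in that comparison no other gene of these lists passed 2-fold in either direction. Nid1 and Lamb1 differed by 1.06-fold and 1.13-fold.

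Of 21 regulators of collagen transcription, including the TGF-beta pathway and factors that bind CCAAT and GC boxes, 2 were at least 2-fold lower and 2 at least 2-fold higher (median 0.05). Ccn2 was 7.46-fold lower and the receptor Tgfbr2 2.19-fold lower, while Tgfbr1 was 2.03-fold higher and Sox9, the activator of cartilage collagens, 2.23-fold higher. Sp1, Nfya and Smad3 differed by 1.02-fold, 1.16-fold and 1.03-fold. The median over all 15362 genes compared was 0.02, and 8.35% and 6.62% of them were at least 2-fold lower and higher.

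The fibroblast markers, which hold no collagen, were lower beside the collagens: 5 of 13 were at least 2-fold lower on the siRNA-labelled array than on the high-glucose-labelled array and none higher (median -0.86). Dpt was 8.46-fold, Lum 6.79-fold and Fbln1 4.57-fold lower, Postn was 2.62-fold and Tcf21 at least 2.01-fold lower, and Dcn was 1.33-fold lower. Above 0 were 3 of the 13, with Fap 1.81-fold, Pi16 1.22-fold and Thy1 1.07-fold higher. Smooth muscle and pericyte markers had 5 of 12 at least 2-fold lower, namely Acta2 (5.02-fold), Pdgfrb (2.88-fold), Mylk (2.72-fold), Cnn1 (2.53-fold) and Tagln (2.18-fold), and 1 at least 2-fold higher, Cspg4 (2.36-fold). Among 12 endothelial markers 4 were at least 2-fold lower and 3 at least 2-fold higher. Sox7 was 3.05-fold, Cdh5 2.86-fold and Esam 2.22-fold higher, Vwf was 2.40-fold and Robo4 2.13-fold lower, Tek at least 3.82-fold and Cldn5 at least 2.12-fold lower, and Kdr differed by 1.03-fold.

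**Figure D4:**
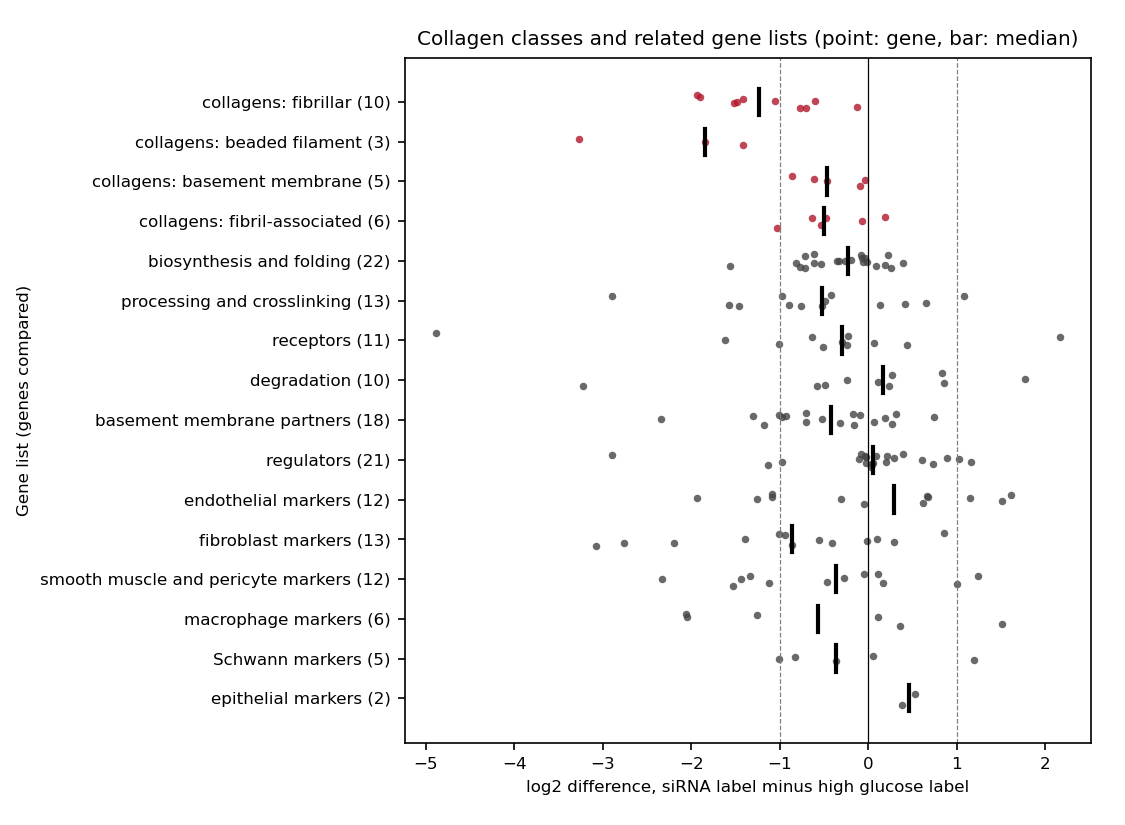
Log2 difference between the siRNA and high glucose labels (horizontal axis) for genes of 4 collagen classes (red) and of 12 related lists (grey), 1 point per gene, with black bars at the median and dashed lines at 2-fold. Medians of fibrillar (-1.23) and beaded filament (-1.85) collagens lie left of every related list, of which the fibroblast markers (-0.86) are lowest. The beaded filament median includes the bound Col6a5 and was -1.63 over measured genes only. That of the fibroblast markers includes the bound Tcf21 and was -0.71 over measured genes only.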

How the data were processed

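The authors deposited scanner output of 3 single-colour arrays and a series value table. Agilent Feature Extraction 11.0.1.1, per the file headers, turned spot brightness into a linear background-subtracted intensity, the processed signal, with an error from its own model. The authors' value table holds the same intensity: for 100% of 38999 probes with 1 spot it lay within 0.1% of the processed signal. Its scale is linear with no centring, and how repeated spots were combined is unknown. Arrays were assigned by the labels.

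Outlier spots were dropped (107, 147 and 109 for siRNA, high glucose and normal glucose), and so were 31 probes with no other spot on an array. No spot was saturated. Spots of 1 probe were averaged as log2 signal, less the 75th percentile of 39398 non-control probes on that array. Well above background means that the software so marked at least 50% of a probe's spots, and 67.1% to 70.6% of probes on an array met this. Where 1 of 2 arrays was below background, the fold is a bound against the dim probe's own value or the lowest value above background on that array, whichever is higher.

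Accessions were matched to RefSeq (GRCm38.p6), naming 26036 probes (66.1%). The array was annotated on mm9, so its own gene coordinates are not given, and the positions and distances printed above are those of RefSeq. A gene is represented by its brightest passing probe. The rule named every collagen gene and, in each related list, up to 6 genes past 2-fold, and a few others were named after their values were seen. Members and lists were chosen with earlier results of these data known. The lists of macrophage, Schwann and epithelial markers are given with the other observations. The value of 1 marker gene is not reported here. The steps were tested on simulated arrays. Alternatives were quantile normalization and cyclic loess (limma 3.58.1), scaling to a median, normexp with an offset of 50 on median spot signals (mean signals were planned), the value table, other filters, the mean over probes, 1.5-fold and 3-fold thresholds, and exchanging 2 arrays. The work used Python 3.11.15, numpy 2.4.6 and R 4.3.3. The single array per group limits the precision.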

Additional observations from a re-analysis of the deposited data

How the results depend on the processing

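No paired analysis was possible because each group has 1 array, and for the same reason no replicate could be left out. The number of collagen genes at least 2-fold lower on the siRNA-labelled array than on the high-glucose-labelled array was 12, and it was 20 at 1.5-fold, where 1 gene was higher, and 6 at 3-fold. Against normal glucose it was 9, and 16 and 4 at those thresholds, with 1 higher at 1.5-fold and 1 higher with no filter on dim probes. The gene higher at 1.5-fold was the bound Col15a1 in both comparisons, and the counts of lower genes include bounds. Shares of all genes past 1.5-fold and 3-fold were not computed, so the counts at those thresholds have no background beside them. With the siRNA and high glucose arrays exchanged between labels, 0 were lower and 12 higher with a median of 0.71, and between high glucose and normal glucose 9 were lower and 0 higher with a median of -0.60. The single gene higher on the high-glucose-labelled array became 0 with normexp or with genes above background on every array, and 2 with no filter. Beaded filament collagens had a median of -1.40 with normexp, -1.41 with no filter and -1.63 above background on every array. Short-chain collagens had -0.033 with normexp, transmembrane collagens 0.011 with cyclic loess, and multiplexins -0.36 with normexp and -0.85 on every array. With normexp the medians of endothelial, fibroblast, macrophage and epithelial markers were -0.00434, -0.57, -0.33 and 0.12. With no filter those of endothelial and of smooth muscle and pericyte markers were -0.18 and -0.79, and on every array those of endothelial and Schwann markers were 0.62 and -0.60. The cause was not tested, apart from fewer or more genes compared under a filter. Of 255 repeats of counts and medians 224 kept their value to within 1.5 times or 0.20 on the log2 scale. Some of these repeats could hardly differ, so that number overstates how far the results were checked. Naming probes only through RefSeq repeats the main values, and the value table holds the same intensity as the processed signal. All 9 genes past 2-fold on every array stayed past it in the same direction with quantile normalization, cyclic loess, scaling to a median and normexp. The other filters, the mean over probes and the value table are no check on these 9 genes. Each has a single probe with 1 spot, above background on every array, and the value table holds the same intensity. Scaling alternatives moved the median of all genes by less than 0.1. The restriction to genes with a scaled signal of at least 100 was added after the data were seen. Dim genes, near 20 to 100 in scaled signal, limit the transmembrane and fibril-associated classes.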

Other observations

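Genes of other cell types than those above were read on these arrays beside the collagens. The background is again 8.35% of all genes lower and 6.62% higher by 2-fold or more. Of 7 macrophage markers 6 passed, and 3 were at least 2-fold lower and 1 at least 2-fold higher on the siRNA-labelled array than on the high-glucose-labelled array (median -0.57). The macrophage receptor Adgre1 was 4.18-fold lower and lysozyme, Lyz2, 4.13-fold lower, Ptprc, the leukocyte antigen CD45, was 2.39-fold lower, while Cd14, a co-receptor for bacterial lipopolysaccharide, was 2.86-fold higher. Csf1r, the receptor that macrophages need for survival, differed by 1.08-fold. Their summed scaled signal was 18983 on the siRNA-labelled array, 10959 on the high-glucose-labelled array and 11155 on the normal-glucose-labelled array. The brightest of them was Cd14, with 15189, 5309 and 5605 in the same order of labels, which is most of the sum on the siRNA-labelled array only. Without Cd14 the sum was 3795, 5650 and 5550, lower on the siRNA-labelled array. That sum was added after the data were seen.

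All 5 Schwann cell markers passed on at least 1 array. Between the siRNA and high glucose labels 1 of the 5 was at least 2-fold lower and 1 at least 2-fold higher, and 3 were below 0 (median of the list -0.36). The higher one was S100b, a calcium-binding protein of glia, which was 2.28-fold higher on the siRNA-labelled array than on the high-glucose-labelled array. Of 5 epithelial markers only the keratins Krt5 and Krt14 passed, both dim and within 2-fold (median 0.46), and Epcam, Cdh1 and Krt8 were not well above background on any array.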
